A study of Homo sapiens with 8 samples.

Results

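BT-549 cells treated for 24 h with EC359 and vorinostat together were compared with vehicle-treated BT-549 cells, gene by gene, over the whole transcriptome. BT-549 is an established human line of triple negative breast cancer, a class of tumors that lack the estrogen receptor, the progesterone receptor and HER2 amplification. The vehicle was DMSO, and the treated cells received EC359 at 100 nM and vorinostat at 10 µM. Each group had 2 RNA-seq libraries, so 4 of the 8 libraries of the series entered the comparison, and the 2 libraries with EC359 alone and the 2 with vorinostat alone at the same doses and time were used beside them. All 23228 listed genes were taken, and the 13694 with enough counts were tested. The labels do not say whether libraries of a group came from separate cultures, so the p-values measure the spread between these libraries, which may be technical. One line stands for the tumor type here, and RNA from a whole culture cannot tell fewer cells of a kind from less RNA per cell.

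EC359 is a small molecule made to block the binding of LIF to its receptor, LIFR. LIF and other cytokines of the IL6 family bind LIFR together with gp130, the product of IL6ST, which activates JAK kinases, the transcription factor STAT3 and the MAPK and AKT routes. SOCS proteins are induced by STATs and close this loop. Vorinostat inhibits the zinc-dependent histone deacetylases, enzymes that remove acetyl groups from histones and other proteins, and its known consequences include hyperacetylated chromatin, induction of CDKN1A and arrest of the cell cycle. The study asked what the pair of drugs does to gene expression in these cells.

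The libraries held between 19069450 and 24759041 gene counts, with 20931921 and 21020292 under vehicle and 20476800 and 20302102 under the combination. The 100 genes with most counts took 16.7% and 16.4% of counts in the vehicle libraries and 21.5% and 21.7% in the combination libraries. Between the libraries of a group the log2 CPM (CPM, counts relative to the TMM-scaled library total) differed with an SD over genes of 0.349 under vehicle and 0.448 under the combination. The markers of the labelled line were checked in the vehicle libraries. VIM, the mesenchymal filament protein, stood at 2166 and 2056 CPM and SPARC, a matrix protein, at 3459.6 and 3458 CPM. ESR1, the estrogen receptor gene, had 0 counts in both vehicle libraries and PGR was too low to be tested. Under the combination ESR1 had 20 and 11 counts, and its call as higher was lost when any 1 of the 4 libraries was left out.

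A gene was called higher or lower where edgeR's quasi-likelihood test gave an adjusted p under 0.01 and a fold change over 2. A value after ± is an approximate standard error (SE) of a log2 fold change, worked back from the statistic of that test. It was not estimated separately, and it can be too small for genes with few counts in a group. Under the combination 4763 genes were called against vehicle, 34.8% of those tested. Of these, 2666 were higher (19.5% of tested genes) and 2097 lower (15.3%). Against vorinostat alone the combination had 582 calls (4.25%), with 462 genes higher (3.37%) and 120 lower (0.876%). Against EC359 alone it had 4620 calls (33.7%), with 2712 higher (19.8%) and 1908 lower (13.9%). These 3 comparisons share the combination libraries, so their calls are not independent.

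The rises were larger than the falls. Genes called higher had a median log2 fold change of 2.06, and genes called lower one of -1.54. A change of more than 8-fold was reached by 819 genes called higher and 160 called lower, and one of more than 32-fold by 289 and 20. These tallies include genes near 0 counts in 1 group, which entered the tests only through groups in which they were higher. Among tested genes, 533 had at most 3 counts in each vehicle library and 68 had at most 3 in each combination library. How many of these are in the tallies was not counted. The median over all tested genes was 0.07, with quartiles at -0.68 and 0.93. Among all tested genes, 86.5% showed no overlap between the vehicle and the combination libraries, so the absence of overlap alone sets few genes apart here. Log2 fold changes of genes near 0 counts in one group depend on the prior count of the fit. For the genes picked below by at most 3 counts per library in 1 group, counts are given in place of log2 fold changes. Log2 fold changes are still printed for other genes with few vehicle counts. Among them are CCL20 (4 and 5 vehicle counts), ARC (3 and 15), BCL2A1 (8 and 6), NRXN2 (6 and 10) and NR4A2. With so few counts their sizes are uncertain, and the SEs printed for them understate the counting error.

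**Figure D1:**
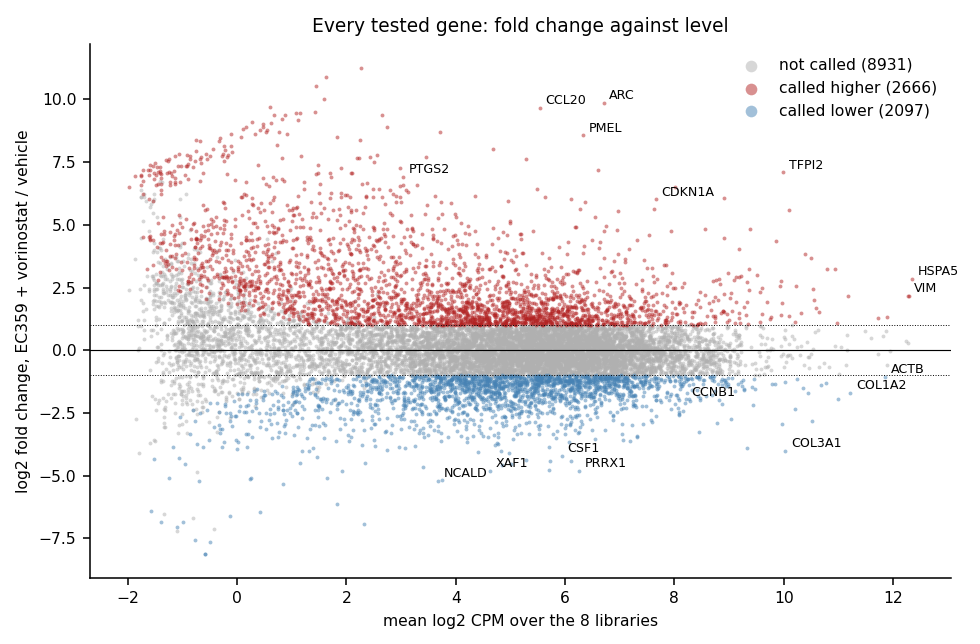
Log2 fold change of the combination over vehicle (vertical axis) against the mean log2 CPM over the 8 libraries (horizontal axis) for the 13694 tested genes, with 2666 called higher in red, 2097 called lower in blue and the rest in gray; dotted lines mark a 2-fold change. The cloud is taller above 0 than below it, and among genes with high counts HSPA5, VIM and TFPI2 lie above the band while COL3A1, COL1A2 and ACTB lie below it.

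The 15 largest rises, among genes with a mean log2 CPM of at least 3 and no overlap between groups, were led by ARC, CCL20, ACTBL2, PMEL and BCL2A1. They also held HPCAL4, NRXN2, CPA4, TFPI2, PTGS2, BAIAP3, AKR1C1, DHRS2, MMP3 and HYAL1. CCL20, a chemokine that draws cells bearing CCR6, was at 0.189 and 0.234 CPM under vehicle and 186 and 164 CPM under the combination, a log2 fold change of 9.66 ± 0.22 (edgeR's quasi-likelihood test, Benjamini-Hochberg adjusted p = 1.33e-08). ARC, an activity-regulated gene of neurons and an immediate early gene, went from 0.142 and 0.701 to 406 and 395 CPM, a log2 fold change of 9.87 ± 0.32 (edgeR's quasi-likelihood test, Benjamini-Hochberg adjusted p = 5.16e-08). TFPI2, which encodes a secreted inhibitor of serine proteases, was at 25.6 and 25.3 CPM and 3466 and 3454 CPM, a log2 fold change of 7.09 ± 0.09 (edgeR's quasi-likelihood test, Benjamini-Hochberg adjusted p = 8.37e-10). In all 3 genes the combination libraries lay close together and far above both vehicle libraries.

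PMEL, a melanosome matrix protein, went from 0.283 and 0.42 to 152 and 118 CPM and stood at 187 and 184 CPM with vorinostat alone. The gene overlaps CDK2 on the other strand and no source used here gives the strand setting, so its reads cannot be assigned with certainty. DHRS2, a mitochondrial reductase known as a gene that deacetylase inhibitors induce, rose from 5.95 and 5.61 to 528 and 527 CPM. MMP3, the matrix protease stromelysin, rose from 1.32 and 2.06 to 146 and 145 CPM. CPA4, a carboxypeptidase known to be induced by deacetylase inhibitors, rose from 1.84 and 1.59 to 262 and 237 CPM. The loci on GRCh37 are chr2:228670455-228682280 for CCL20, chr7:93514708-93520065 for TFPI2, chr14:24099324-24114848 for DHRS2 and chr7:129932974-129964020 for CPA4. AKR1C1, a reductase of steroids and ketones, rose from 0.283 and 0.28 to 31.2 and 24.4 CPM. Reads that also aligned to its near-identical AKR1C paralogs were not counted.

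The 15 largest falls by the same conditions were NCALD, CYP27C1, PRRX1, XAF1, KCTD15, APOL6, ANKRD58, ANK1, GAS1, PHF19, CAP2, CSF1, HDAC7, DENND2A and TGFB1I1. PRRX1, a homeobox factor of mesenchymal cells, fell from 144 and 128 CPM under vehicle to 4.2 and 5.41 CPM under the combination, a log2 fold change of -4.82 ± 0.24 (edgeR's quasi-likelihood test, Benjamini-Hochberg adjusted p = 3.41e-07). With vorinostat alone it was at 4.17 and 3.4 CPM and with EC359 alone at 193 and 127 CPM. NCALD, a neuronal calcium sensor, went from 38.8 and 38.4 to 0.563 and 1.53 CPM, a log2 fold change of -5.20 ± 0.30 (edgeR's quasi-likelihood test, Benjamini-Hochberg adjusted p = 7.44e-07). CSF1, the growth factor of macrophages, went from 168 and 158 to 7.68 and 10.01 CPM, a log2 fold change of -4.21 ± 0.14 (edgeR's quasi-likelihood test, Benjamini-Hochberg adjusted p = 5.33e-08).

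The other large falls were of varied roles. XAF1, an antagonist of the caspase inhibitor XIAP, fell from 59.1 and 47.8 to 2.25 and 1.53 CPM. PHF19, a Polycomb-associated reader of methylated histones, fell from 144 and 156 to 6.4 and 7.51 CPM. GAS1, a growth arrest gene and Hedgehog co-receptor, fell from 89.2 and 107 to 5.07 and 4.03 CPM. KCTD15 went from 94.8 and 103 to 2.76 and 4.39 CPM and ANK1, a spectrin-binding ankyrin, from 113 and 106 to 4.09 and 5.46 CPM. HDAC7 is described with the deacetylases, and DENND2A overlaps ADCK2 on the other strand.

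**Figure D2:**
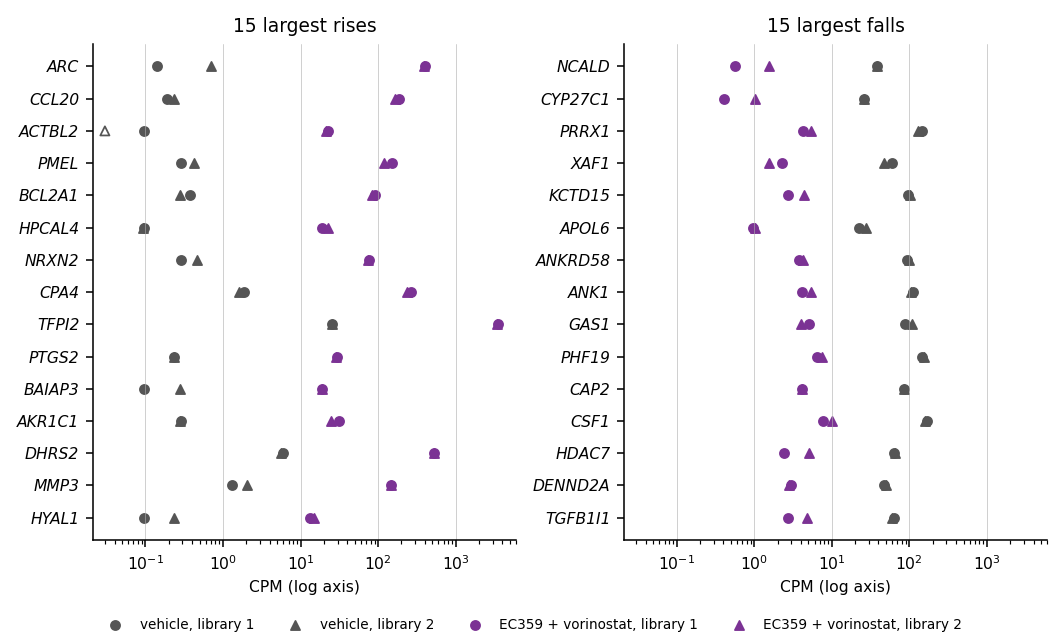
CPM on a log axis in each vehicle library (gray) and each combination library (purple) for the 15 largest rises (left) and the 15 largest falls (right), with circles for library 1 and triangles for library 2; an open marker at the left edge stands for 0 counts. Genes were picked on the condition that the combination libraries lie on one side of both vehicle libraries, so this holds in every gene shown. TFPI2, for example, had 25.6 and 25.3 CPM under vehicle and 3466 and 3454 CPM under the combination.

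Calls were also ranked by the change in share of all gene counts, and since long genes collect more reads these shares are shares of counts and not of molecules. HSPA5, the chaperone BiP of the endoplasmic reticulum, took 0.171% of gene counts under vehicle and 1.16% under the combination, the largest gain of any called gene. It was followed by the lysosomal protease gene CTSB (0.232% to 0.969%), VIM (0.214% to 0.900%), the zinc and iron importer gene SLC39A14 (0.0468% to 0.421%) and the heme-degrading enzyme gene HMOX1 (0.0422% to 0.373%). TFPI2, the ferritin gene FTH1, the glycoprotein hormone gene STC1, the EGFR inhibitor gene ERRFI1 and the phosphatase gene PTP4A1 completed the 10 largest gains. STC1 rose from 71.0 and 63.8 to 3062 and 3349.8 CPM and PTP4A1 from 236 and 214 to 3254 and 3132 CPM. FTH1 shares its locus with BEST1 on the other strand.

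The 10 largest losses of share were dominated by matrix and cytoskeleton. ACTB, cytoplasmic beta actin, dropped from 0.505% to 0.229% of gene counts, COL1A2 from 0.385% to 0.113%, SPARC from 0.351% to 0.0870% and COL3A1 from 0.270% to 0.0159%. COL5A2, the caveolin gene CAV1, the desaturase gene SCD, FSTL1, TUBB and the adhesion gene ALCAM made up the rest. CAV1 fell from 2457 and 2479 to 489 and 475 CPM and FSTL1, a secreted relative of follistatin, from 1947 and 1987 to 266 and 246 CPM. ACTB was close to the 2-fold threshold (5109.7 and 4839 against 2239 and 2532 CPM, log2 fold change -1.06), and without combination library 1 its log2 fold change was -0.99 and the call was lost. TUBB overlaps MDC1 on the other strand.

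Among genes with at most 3 counts in each vehicle library, 43 had at least 100 counts in each combination library. Such genes entered the tests only through groups in which they were higher, so the number of them called is not given as a result. By mean level under the combination the first 10 were PI3, ACTBL2, HPCAL4, ANKRD1, OASL, DLL4, IRGM, RPL3L, TEX15 and CREB3L3. PI3, the protease inhibitor elafin, had 3 and 1 counts under vehicle and 424 and 448 under the combination, a ratio of 237 (95% counting interval 92.4 to 873). ANKRD1, a YAP target of stretched muscle, had 0 and 1 counts under vehicle and 401 and 370 under the combination, a ratio of 839 (95% counting interval 150.0 to 33200). RPL3L, a muscle paralog of a ribosomal protein, had 0 counts in both vehicle libraries and 267 and 296 under the combination, which is at least 102-fold higher when 3 counts per library are taken as the floor. The intervals cover counting error only.

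DLL4, a Notch ligand, went from 0 and 3 to 301 and 322 counts, a ratio of 226 (95% counting interval 77.0 to 1100). CREB3L3, a membrane-bound factor of liver, went from 0 and 1 to 205 and 337 counts. TEX15, a germ cell gene, went from 2 and 1 to 242 and 302 counts, a ratio of 197 (95% counting interval 67.2 to 960.0). IRGM overlaps ZNF300 on the other strand, and reads of ACTBL2 and RPL3L may come from their close relatives. Of the tested genes with at most 3 counts in each combination library, 0 reached 100 counts in each vehicle library. By mean level under vehicle the first 10 of these were C1orf110, FLJ26245, MGAT3, CXorf28, ISPD, LOC158376, RXFP1, ZBED3, LOC340544 and LOC375190. MGAT3, a glycosyltransferase, had 52 and 65 counts under vehicle and 1 and 0 under the combination. The call of LOC340544 (27 and 24 against 3 and 0 counts) was lost when any 1 of the 4 libraries was left out.

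Immediate early genes, which are transcribed within minutes of a growth signal, were mostly higher. Over all tested genes 19.5% were called higher and 15.3% lower, and the counts in each list of genes are to be read against these shares. A listed gene that passed the filter on low counts only through a group in which it was high had to differ, and this was not separated in the lists. The shares also changed with level. In the lowest quintile of mean log2 CPM over the 8 libraries 30.2% of genes were higher and 8.25% lower. In the highest quintile these shares were 12.3% and 14.9%. Lists were not matched for level, so for lists of weakly expressed genes the shares of all tested genes are a rough reference. Of 29 tested factors of the AP-1 and early response list, 23 rose (79.3%, against 19.5% of all tested genes), 1 fell and 5 were not called, with a median log2 fold change of 2.49. Against vorinostat alone 15 were higher, beside 3.37% of all tested genes. FOS, which forms the AP-1 dimer with JUN, was at 12.7 and 9.76 CPM under vehicle and 243 and 237 CPM under the combination, a log2 fold change of 4.42 ± 0.14 (edgeR's quasi-likelihood test, Benjamini-Hochberg adjusted p = 4.18e-08). It was at 98.4 and 105 CPM with vorinostat alone and 7.55 and 7.76 CPM with EC359 alone, so the combination libraries lay above those of all 3 other groups. EGR1, the zinc finger factor of serum response, was at 42.1 and 32.9 CPM under vehicle, 22.8 and 16.1 with EC359, 74.1 and 80.7 with vorinostat and 298 and 356 under the combination. Over vorinostat alone the log2 fold change of EGR1 was 2.08 ± 0.18 (edgeR's quasi-likelihood test, Benjamini-Hochberg adjusted p = 8.05e-05).

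The orphan nuclear receptor genes of the NR4A family rose together. NR4A3 was at 1.04 and 0.654 CPM under vehicle and 63.8 and 56.1 CPM under the combination (log2 fold change 6.14 ± 0.24), NR4A1 at 4.86 and 6.96 and 167 and 186 CPM (log2 fold change 4.90 ± 0.18), and NR4A2 at 0.755 and 0.187 and 17.7 and 22.3 CPM (log2 fold change 5.39 ± 0.36). EGR3 was at 0.378 and 0.234 and 25.3 and 33.4 CPM, with 1.54 and 2.68 CPM with vorinostat alone. JUN, the partner of FOS, rose less in fold (309 and 300.4 against 1141 and 1152 CPM, log2 fold change 1.91 ± 0.08), and IER3, an early response gene of cell survival, went from 55.9 and 56.1 to 1258 and 1261 CPM. The fall was that of IER5L (285 and 311 to 56.1 and 70.3 CPM). SRF and FOSL1 had log2 fold changes of 0.13 and 0.26 and were not called.

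Next came genes that ERK induces to restrain itself. In the ERK feedback list 12 of 22 tested members rose (54.5%, against 19.5% of all tested genes) and 2 fell, DUSP16 and DUSP9 (9.09%, against 15.3%). Against vorinostat alone 12 were higher, beside 3.37% of all tested genes. DUSP6, a phosphatase specific for ERK, was at 7.74 and 6.77 CPM under vehicle, 164 and 125 with EC359, 14.1 and 15.8 with vorinostat and 322 and 352 under the combination, a log2 fold change of 5.53 ± 0.17 (edgeR's quasi-likelihood test, Benjamini-Hochberg adjusted p = 3.91e-08) over vehicle. DUSP5, its nuclear counterpart, went from 3.02 and 3.18 to 87.3 and 74.7 CPM, and the ETS factors ETV1, ETV4 and ETV5 had log2 fold changes of 3.26, 1.69 and 3.02. SPRY4, an inhibitor of receptor signaling to ERK, stood at 6.33 and 4.76 CPM under vehicle, 96.5 and 75.9 with EC359, 2.57 and 3.06 with vorinostat and 28.7 and 33.5 under the combination. DUSP4 had the same order of groups (27.3 and 30.8, 198 and 217, 10.6 and 11.1 and 64.7 and 60.5 CPM). Both genes were higher under the combination than under vehicle and lower than with EC359 alone, with log2 fold changes against EC359 of -1.47 and -1.73. DUSP9 (3.97 and 3.6 against 1.54 and 1.89 CPM) lost its call without vehicle library 1, vehicle library 2 or combination library 1, which left 1 member lower in each of these fits.

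**Figure D3:**
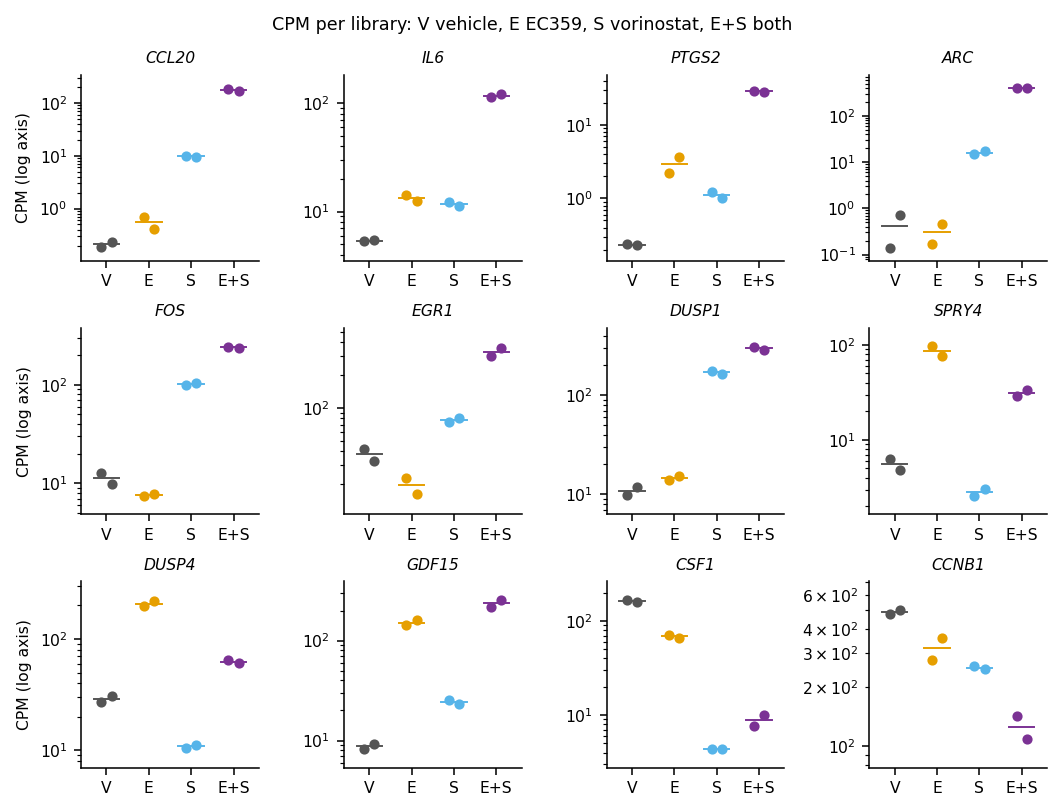
CPM per library on log axes for 12 genes in the 4 groups (V vehicle, E EC359, S vorinostat, E+S both drugs); points are libraries and short lines group means of n = 2. CCL20, ARC, FOS and EGR1 are highest in the combination, SPRY4 and DUSP4 are highest with EC359 alone, CSF1 is lowest with vorinostat alone, and CCNB1 is lowest in the combination.

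Inflammatory mediators were a further list. Of 27 tested genes of the NF-kB chemokine, cytokine and feedback list, 14 rose (51.9%, against 19.5% of all tested genes) and 2 fell (7.41%, against 15.3%), with a median log2 fold change of 1.47, and 18 listed members were too low to test. PTGS2, the inducible cyclooxygenase, was at 0.236 and 0.234 CPM under vehicle, 2.19 and 3.7 with EC359, 1.23 and 1.02 with vorinostat and 29.4 and 28.4 under the combination. IL8 was at 38.2 and 37.8 CPM under vehicle, 339 and 362 with EC359, 38.5 and 39.8 with vorinostat and 1137 and 1039 under the combination, a log2 fold change of 4.84 ± 0.10 (edgeR's quasi-likelihood test, Benjamini-Hochberg adjusted p = 1.15e-08) over vehicle. CXCL3, a neutrophil chemokine of the same family, went from 3.82 and 3.36 to 253 and 219 CPM, and CXCL2 from 4.25 and 5.79 to 137 and 131 CPM. TNFSF9, the ligand of the costimulatory receptor 4-1BB, rose from 7.84 and 7.47 to 242 and 231 CPM.

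The factors behind this pathway did not move as its targets did. NFKB1, which encodes the p50 subunit, fell from 55.2 and 47.9 to 4.5 and 7.92 CPM, a log2 fold change of -3.05 ± 0.23 (edgeR's quasi-likelihood test, Benjamini-Hochberg adjusted p = 3.3e-06), while NFKB2 rose with a log2 fold change of 1.48 and RELA (0.56) and the inhibitor NFKBIA (-0.38) were not called. CSF1, the other member that fell, was higher under the combination than with vorinostat alone (7.68 and 10.01 against 4.32 and 4.38 CPM) and lower than with EC359 alone (70.8 and 66.4 CPM). The start of the CCL20 gene is shown because it had the second largest rise of the rule above. RefSeq places the 250 bases before its start at chr2:227813592-227813841 on GRCh38.p14, plus strand, and the capitals mark a TATA box, TATAAA, 29 to 24 bases before the start, a motif found on either strand in 11.5% of the 35116 promoters of 300 bases in the RefSeq table.
CCL20: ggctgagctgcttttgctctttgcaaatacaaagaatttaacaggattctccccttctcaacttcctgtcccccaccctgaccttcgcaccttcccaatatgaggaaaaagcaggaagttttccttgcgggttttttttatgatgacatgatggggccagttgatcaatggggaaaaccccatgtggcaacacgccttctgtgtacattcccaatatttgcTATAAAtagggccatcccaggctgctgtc

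In the pathway that EC359 targets, ligands were called in both directions, while the called receptors were higher and no JAK was called. Of 31 tested genes of the LIF and IL6 family, 10 rose (32.3%, against 19.5% of all tested genes), 5 fell (16.1%, against 15.3%) and 16 were not called. Higher than with vorinostat alone were 6, beside 3.37% of all tested genes. Among ligands, IL6 rose from 5.33 and 5.42 to 114 and 120.4 CPM, a log2 fold change of 4.44 ± 0.13 (edgeR's quasi-likelihood test, Benjamini-Hochberg adjusted p = 3.74e-08), against 14.3 and 12.4 CPM with EC359 and 12.3 and 11.2 with vorinostat. LIF was at 25.3 and 21.2 CPM under vehicle, 119 and 114 with EC359, 5.61 and 4.8 with vorinostat and 95.9 and 101 under the combination. The log2 fold change of LIF was 2.08 over vehicle and 4.24 over vorinostat alone, the libraries with vorinostat alone were the lowest of the 8, and the difference from EC359 alone was -0.24 on the log2 scale and was not called. CLCF1, a ligand of the CNTF receptor, fell from 12.2 and 11.4 to 1.02 and 0.664 CPM, and CTF1, cardiotrophin, from 4.53 and 3.46 to 1.07 and 0.97 CPM.

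Of the receptors, LIFR was at 23.4 and 28.03 CPM under vehicle and 118 and 119.5 CPM under the combination, and IL6ST at 225 and 212 and 1836 and 1669 CPM, and both rose. OSMR, which also pairs with gp130, had a log2 fold change of 0.58 and IL6R one of 0.72, and neither was called. Of the STATs, STAT6 fell from 57.97 and 56.8 to 10.9 and 11.8 CPM, STAT5B fell with a log2 fold change of -1.36, and STAT3 and STAT2 (0.47 and 0.25) were not called. Of the feedback genes, CISH rose from 0.661 and 0.887 to 8.03 and 7.3 CPM and SOCS3 from 38.5 and 41.01 to 137 and 138 CPM, while SOCS6 fell with a log2 fold change of -1.65. Of JAK1, JAK2 and TYK2, none was called, with log2 fold changes of -0.12, 0.14 and 0.19.

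The project chose some genes of this transcriptome for RT-qPCR, apart from LIFR and other genes of its pathway that it measured separately. Of the 11 chosen genes given by a full symbol, 4 rose and 3 fell in these libraries. Since they were chosen on these samples this is not independent evidence of a direction. The rises were those of CDKN1A, ATF3, GADD45A and TNFRSF10B, and the falls those of the mitotic kinase gene AURKA (-1.75 on the log2 scale), the kinesin gene KIF2C (-1.22) and CDK4 (-1.44). GADD45A, a growth arrest gene of DNA damage, went from 32.1 and 34.8 to 247 and 256 CPM and TNFRSF10B, the death receptor DR5, from 76.5 and 78.6 to 543 and 445 CPM. The others were UBE2S, a ubiquitin-conjugating enzyme gene (0.90), and the inhibitors of differentiation ID1, ID2 and ID3 (log2 fold changes 0.97, 0.34 and -0.20), which are BMP targets in many cells. In the wider BMP list 3 of 24 tested genes rose, among them BMP6 (0.567 and 1.12 to 33.6 and 31.8 CPM), and 6 fell, among them the type I receptor gene BMPR1B (-2.49) and the inhibitory SMAD6 (-2.35).

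**Figure D4:**
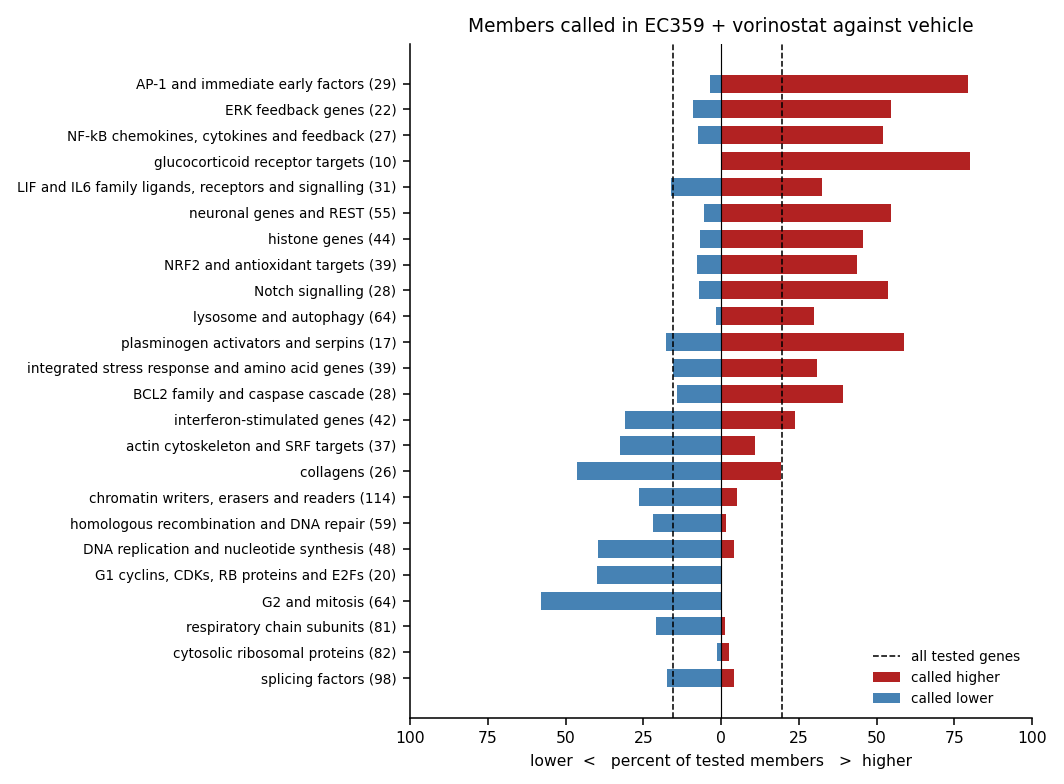
Percent of tested members called higher (red, to the right) and called lower (blue, to the left) in 24 gene lists, with the number of tested members in brackets; dashed lines mark 19.5% and 15.3%, the shares over all tested genes. AP-1 and immediate early factors reach 79.3% higher, G2 and mitosis 57.8% lower with 0% higher, and cytosolic ribosomal proteins stay below both lines.

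Among cell cycle genes falls outnumbered rises. Of 64 tested genes of G2 and mitosis, 37 fell (57.8%, against 15.3% of all tested genes), 0 rose and 27 were not called, and the median log2 fold change was -1.16. CCNB1, the cyclin that drives entry into mitosis, was at 475 and 500.5 CPM under vehicle and 143 and 108 CPM under the combination, a log2 fold change of -1.96 ± 0.16 (edgeR's quasi-likelihood test, Benjamini-Hochberg adjusted p = 5.48e-06). It was at 275 and 359.9 CPM with EC359 and 257 and 249 CPM with vorinostat, so the combination libraries were the lowest of the 8. FOXM1, the forkhead factor of mitotic genes, fell from 511 and 460.1 to 86.1 and 96.01 CPM, GTSE1 from 129.9 and 127 to 19.3 and 22.6 CPM and SPC24, a kinetochore subunit, from 25.6 and 19.6 to 3.48 and 3.12 CPM. MKI67, which encodes the Ki-67 antigen, fell from 529 and 438 to 110.2 and 129.9 CPM.

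Against vorinostat alone 5 of these genes were lower, beside 0.876% of all tested genes, among them CCNB1 (log2 fold change -1.01), CCNB2 (-1.14), KIF20A (-1.36) and SPC24 (-1.08). Members not called against vehicle included TPX2 (-0.99), AURKB (-0.85) and CDC20 (-0.67). The promoters of CCNB2 and PLK1 are shown because genes of late cell cycle stages are known to share a CHR element near the start with CCAAT boxes before it. In the 300 bases around the start, 46 of 65 promoters that RefSeq gives for 54 of the 64 genes (70.8%) held TTTGAA or TTCGAA on either strand, against 16.4% of all 35116 promoters of the table. CCAAT was in 51 of the 65 (78.5%), against 34.6% of all. These are matches of letters and not measured binding.

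CCNB2 fell from 96.8 and 97.9 to 25.5 and 22.1 CPM, a log2 fold change of -2.03 ± 0.11 (edgeR's quasi-likelihood test, Benjamini-Hochberg adjusted p = 5.95e-07), and PLK1, the polo kinase of mitosis, from 328 and 305 to 72.2 and 89.6 CPM, a log2 fold change of -1.97 ± 0.14 (edgeR's quasi-likelihood test, Benjamini-Hochberg adjusted p = 2.81e-06). The 250 bases before the start are at chr15:59104896-59105145 for CCNB2 and chr16:23678639-23678888 for PLK1 on GRCh38.p14, both plus strand. Capitals mark the CHR element, 29 to 24 bases before the start in both, and CCAAT, found 4 times in CCNB2 and 1 time in PLK1.
CCNB2: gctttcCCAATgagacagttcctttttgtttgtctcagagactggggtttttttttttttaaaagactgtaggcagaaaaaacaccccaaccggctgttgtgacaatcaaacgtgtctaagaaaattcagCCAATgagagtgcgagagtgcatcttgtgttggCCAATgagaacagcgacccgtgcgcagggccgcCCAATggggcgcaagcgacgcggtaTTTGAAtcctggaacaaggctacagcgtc
PLK1: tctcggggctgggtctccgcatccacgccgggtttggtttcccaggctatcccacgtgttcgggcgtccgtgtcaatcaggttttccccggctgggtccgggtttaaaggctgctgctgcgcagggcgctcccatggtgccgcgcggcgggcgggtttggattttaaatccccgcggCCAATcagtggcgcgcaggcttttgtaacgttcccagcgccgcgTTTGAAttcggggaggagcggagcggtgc

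The genes of the G1 phase and of DNA replication fell in part. Of 20 tested G1 cyclins, kinases, RB proteins and E2F factors, 8 fell and 0 rose, with TFDP1, the E2F partner, at 374 and 379 CPM under vehicle and 106 and 105 CPM under the combination. CDK4 (-1.44), CDK6 (-1.40), E2F3 (-1.39) and CCND1 (-1.10) were also called, whereas RB1 (-0.54), E2F1 (-0.37) and CCNE1 (-0.21) were not. In DNA replication and nucleotide synthesis 19 of 48 fell (39.6%, against 15.3% of all tested genes) and 2 rose (4.17%, against 19.5%). Fewer rose without combination library 1. TYMS, the enzyme that makes thymidylate, went from 303 and 321 to 29.9 and 26.8 CPM, a log2 fold change of -3.46 ± 0.11 (edgeR's quasi-likelihood test, Benjamini-Hochberg adjusted p = 4.49e-08), with 40.5 and 37.3 CPM with vorinostat alone. MCM2, MCM3 and MCM5 of the replicative helicase had log2 fold changes of -1.48, -1.67 and -1.45, and PCNA (-0.26) and RRM2 (0.87) were not called.

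The CDK inhibitors were split by family member. CDKN1A, which encodes p21, was at 7.13 and 7.43 CPM under vehicle, 40.4 and 46.6 with EC359, 288 and 291 with vorinostat and 459 and 480.0 under the combination. CDKN1C, which encodes p57, rose from 0.0944 and 0.654 to 13.1 and 11.4 CPM, CDKN2D from 13.1 and 14.6 to 59.6 and 57.6 CPM and CDKN2B from 64.7 and 64.3 to 256 and 250.1 CPM. CDKN2C, which encodes p18, fell from 382 and 392 to 35.5 and 36.5 CPM, a log2 fold change of -3.43 ± 0.10 (edgeR's quasi-likelihood test, Benjamini-Hochberg adjusted p = 2.93e-08), and was lower than with either drug alone (97.6 and 104 CPM with EC359 and 114 and 106 with vorinostat). CDKN1B and CDKN2A, which encode p27 and p16, fell with log2 fold changes of -1.91 and -1.71. All 7 tested members were thus called, 4 higher and 3 lower.

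Among 59 tested genes of homologous recombination and other DNA repair, 13 fell and 1 rose. The rises numbered 0 without vehicle library 2 or combination library 1 and 2 without vehicle library 1. FANCL, the ubiquitin ligase of the Fanconi pathway, fell from 24.6 and 22.4 to 3.17 and 2.55 CPM, a log2 fold change of -3.03 ± 0.26 (edgeR's quasi-likelihood test, Benjamini-Hochberg adjusted p = 8.71e-06). FANCD2 had a log2 fold change of -1.57 and XRCC5, a Ku subunit, one of -1.39. BRCA1 (-0.92), BRCA2 (-0.25) and ATM (-0.68) were not called.

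In the BCL2 family and caspase cascade of cell death 11 of 28 tested genes rose (39.3%, against 19.5% of all tested genes) and 4 fell (14.3%, against 15.3%). BCL2A1, a prosurvival relative of BCL2, was at 0.378 and 0.28 CPM under vehicle, 12.99 and 14.96 with EC359, 1.39 and 1.66 with vorinostat and 89.97 and 84.4 under the combination, a log2 fold change of 8.03 ± 0.21 (edgeR's quasi-likelihood test, Benjamini-Hochberg adjusted p = 2.16e-08) over vehicle. The BH3-only genes BMF (1.79 and 2.38 to 21.8 and 20.7 CPM), PMAIP1 (3.35 and 3.6 to 22.2 and 26.1 CPM), BCL2L11 (log2 fold change 2.21) and BBC3 (1.72) rose, and BID, which links death receptors to mitochondria, fell from 37.1 and 39.7 to 9.01 and 6.43 CPM. MCL1 rose (1.28), BOK fell (-2.17), and BCL2 (0.02), BCL2L1 (-0.98) and BAX (-0.51) were not called. Without combination library 1, 2 members of this list were lower in place of 4.

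PLK3, a stress-induced polo kinase, went from 1.23 and 1.03 to 18.6 and 20.6 CPM and BTG2, an antiproliferative gene, from 1.75 and 2.06 to 17.2 and 14.8 CPM, while MDM2 (-0.51) was not called and PLK2 (-1.41) and CCNG1 (-1.23) fell. Of 15 tested death receptor genes, 4 rose (26.7%, against 19.5% of all tested genes) and 3 fell (20.0%, against 15.3%). Fewer were called higher with any 1 of the 4 libraries left out. TNFRSF10A, the receptor DR4, went from 0.0472 and 0.187 to 4.2 and 2.76 CPM, and the TNF receptor gene TNFRSF1A fell from 344 and 328 to 83.98 and 88.6 CPM.

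In the integrated stress response, in which phosphorylated eIF2 favors translation of ATF4, 12 of 39 tested genes rose (30.8%, against 19.5% of all tested genes) and 6 fell (15.4%, near the 15.3% of all). GDF15, a stress cytokine, was at 8.26 and 9.3 CPM under vehicle, 142 and 162 with EC359, 25.4 and 23.3 with vorinostat and 219 and 254 under the combination, and the difference from EC359 alone (0.64 on the log2 scale) was under 2-fold. ATF3 went from 15.2 and 16.3 to 284 and 242 CPM, SESN2, a leucine sensor, from 24.1 and 25.7 to 422 and 405 CPM and DDIT3, which encodes CHOP, from 24.03 and 25.6 to 167 and 150.2 CPM. ATF4 (0.73) and TRIB3 (0.68) were not called, and NUPR1, a stress-induced chromatin protein, fell from 34.7 and 30.1 to 3.22 and 2.86 CPM.

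Of 22 tested genes of the unfolded protein response 4 rose (18.2%, near the 19.5% of all tested genes) and 2 fell, 1 without vehicle library 2 or combination library 1. HSPA5 was at 1678 and 1699.8 CPM under vehicle, 1244 and 1355 with EC359, 5696 and 5732 with vorinostat and 12672 and 11544 under the combination, a log2 fold change of 2.84 ± 0.08 (edgeR's quasi-likelihood test, Benjamini-Hochberg adjusted p = 2.98e-08) over vehicle. ERN1, the sensor IRE1, rose with a log2 fold change of 2.89 and HERPUD1, of the degradation of misfolded proteins, from 88.3 and 95.1 to 456 and 421 CPM, while XBP1, the factor that IRE1 splices, fell from 121 and 133 to 45.8 and 49.2 CPM. The chaperones HSP90B1 (-0.26), PDIA4 (-0.87) and CALR (0.55) were not called. The 250 bases before the start of HSPA5, at chr9:125241344-125241593 on GRCh38.p14, minus strand, are shown because this gene gained most in share of counts. Capitals mark 4 CCAAT boxes, 1 of which reads ATTGG because it lies on the other strand.
HSPA5: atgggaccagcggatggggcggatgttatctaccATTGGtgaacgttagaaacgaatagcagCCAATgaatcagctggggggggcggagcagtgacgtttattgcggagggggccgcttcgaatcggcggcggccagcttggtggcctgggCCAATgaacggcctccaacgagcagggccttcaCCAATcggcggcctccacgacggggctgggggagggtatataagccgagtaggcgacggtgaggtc

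Of 24 tested heat shock genes 4 were called higher and 4 lower, 16.7% each and near the shares of all tested genes. HSPA1A and HSPA1B rose (1.72 and 1.73) but are near-identical copies, and reads that aligned to both were not counted. DNAJB1 rose (1.37), and the small heat shock gene HSPB1 and the mitochondrial chaperone gene HSPD1 fell (-1.35 and -1.05). HSPA8 (-0.58) and HSP90AA1 (0.30) were not called.

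In a list of antioxidant genes and targets of NRF2, the factor of oxidative stress, 17 of 39 tested genes rose and 3 fell. These are 43.6% and 7.69%, against 19.5% and 15.3% of all tested genes. HMOX1 was at 402 and 429.6 CPM under vehicle, 1513 and 2143 with EC359, 1743 and 1710.1 with vorinostat and 4063 and 3722 under the combination, a log2 fold change of 3.23 ± 0.15 (edgeR's quasi-likelihood test, Benjamini-Hochberg adjusted p = 2.97e-07) over vehicle. SRXN1, sulfiredoxin, rose from 109.6 and 123 to 1026 and 945 CPM and TXNRD1 from 298 and 317 to 1251 and 1099.6 CPM. TXNIP, the inhibitor of thioredoxin, which is not taken here as an NRF2 target, rose from 52.97 and 53.8 to 1605 and 1472 CPM. NQO1 (0.05), a classical target, and NFE2L2 (0.15), the gene of NRF2, were not called, and KEAP1, its repressor, fell from 87.4 and 106 to 20.4 and 24.9 CPM.

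Metal-handling genes rose in 11 of 25 tested and fell in 2. MT1X and MT2A, metallothioneins that bind zinc and copper, went from 24.4 and 18.3 to 413 and 629.5 CPM and from 341 and 274 to 1827 and 2295 CPM. Reads that also aligned to their close relatives were not counted. SLC30A1, the zinc exporter, rose from 11.99 and 14.9 to 206 and 187 CPM and SLC39A14 from 435 and 487 to 4739.6 and 4047 CPM, while the importer gene SLC39A10 fell from 106 and 106 to 18.9 and 18.4 CPM. In the lysosome and autophagy list 19 of 64 rose (29.7%) and 1 fell (1.56%), a call lost without vehicle library 2 or combination library 2. SQSTM1, which encodes p62, rose from 358 and 367 to 2147 and 2112 CPM, MAP1LC3B, the LC3 of autophagosomes, from 185 and 173 to 1419.9 and 1327 CPM, and CTSB from 2282 and 2285 to 9991 and 10201 CPM. LAMP1 (0.18), CTSD (0.15) and ATG5 (-0.04) were not called.

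**Figure D5:**
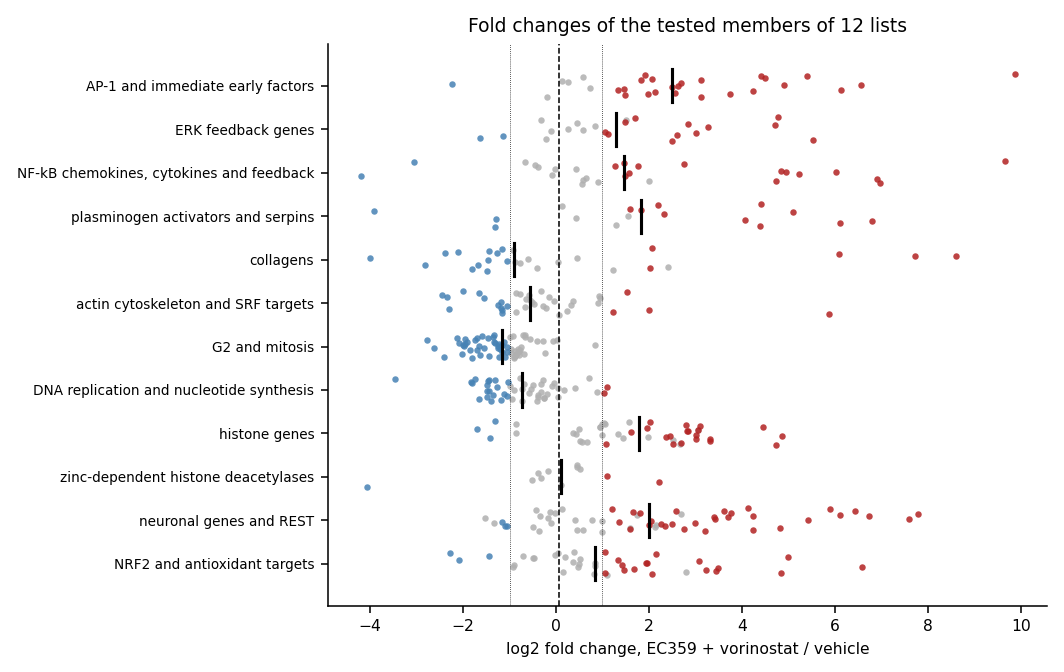
Log2 fold change of the combination over vehicle for each tested member of 12 lists (red called higher, blue called lower, gray not called); black bars are list medians, the dashed line is the median of all tested genes (0.07) and dotted lines mark a 2-fold change. The medians run from -1.16 in G2 and mitosis to 2.49 in AP-1 and immediate early factors, and the deacetylase genes have a median of 0.11 with HDAC7 at -4.07 and HDAC5 at 2.21 farthest from 0.

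Among collagen genes falls outnumbered rises. Of 26 tested collagen genes 12 fell (46.2%, against 15.3% of all tested genes), 5 rose (19.2%, near the 19.5% of all) and 9 were not called. Their median log2 fold change was -0.90. COL3A1, of fibrillar type III collagen, was at 2586 and 2724 CPM under vehicle, 688 and 875 with EC359, 567 and 568 with vorinostat and 185 and 147 under the combination. It fell against vehicle, and against vorinostat alone its log2 fold change was -1.77 ± 0.14 (edgeR's quasi-likelihood test, Benjamini-Hochberg adjusted p = 4.44e-05). Its neighbor on chromosome 2, COL5A2, went from 2818 and 2755 to 419 and 375 CPM, a log2 fold change of -2.81 ± 0.09 (edgeR's quasi-likelihood test, Benjamini-Hochberg adjusted p = 3.91e-08). The genes lie at chr2:189839099-189877472 and chr2:189896624-190090038 on GRCh37. COL1A1 (-0.93) was not called, and COL4A4, of basement membrane, was among those that rose (0.142 and 0.0934 to 7.27 and 9.6 CPM). SERPINH1, the collagen chaperone HSP47, fell from 1395 and 1443 to 90.5 and 98.3 CPM.

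Of 17 tested plasminogen activator and serpin genes 10 rose (58.8%, against 19.5% of all tested genes) and 3 fell (17.6%, against 15.3%). PLAT, the tissue activator, rose from 0.189 and 0.234 to 4.3 and 4.9 CPM, PLAUR, the urokinase receptor, rose (1.82) and PLAU, urokinase, fell (-1.30). Of 42 tested metalloproteinase genes and inhibitors 12 rose (28.6%, against 19.5% of all tested genes) and 9 fell (21.4%, against 15.3%). MMP10 (0.0472 and 0.0934 to 11.7 and 9.04 CPM), MMP1 (log2 fold change 2.69) and the inhibitor TIMP1 (197 and 212 to 1572 and 1507 CPM) rose, and MMP14, the membrane-type collagenase, fell from 443 and 413 to 89.1 and 102 CPM.

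The actin cytoskeleton list had 12 of 37 tested genes lower (32.4%, against 15.3% of all tested genes) and 4 higher (10.8%, against 19.5%). TPM1, a tropomyosin, fell from 604 and 561 to 105 and 109 CPM, the focal adhesion gene ZYX from 169 and 154 to 31.7 and 31.7 CPM and MSN, moesin, from 431 and 377 to 75.4 and 87.4 CPM, whereas EZR, ezrin, rose from 173 and 162 to 648 and 685 CPM and CNN1, a smooth muscle calponin, from 0.519 and 0.467 to 31.3 and 27.4 CPM. ACTA2 (-0.31) and FLNA (-0.04) were not called. Of 15 genes of the mesenchymal identity of BT-549, 6 fell, VIM rose and 8 were not called. VIM went from 2166 and 2056 to 9309 and 9442 CPM, a log2 fold change of 2.15 ± 0.07 (edgeR's quasi-likelihood test, Benjamini-Hochberg adjusted p = 5.16e-08), while FBN1, fibrillin, fell from 206 and 197 to 33.01 and 28.1 CPM and CDH11, a mesenchymal cadherin, from 300.1 and 285 to 64.3 and 63.3 CPM.

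Factors of the epithelial to mesenchymal transition were divided. TWIST1 fell from 68.7 and 66.6 to 13.5 and 15.4 CPM, ZEB2 fell (-1.29, a call lost without vehicle library 1 or combination library 1), SNAI1 rose from 2.97 and 3.08 to 67.9 and 81.4 CPM, and ZEB1 (-0.16) and SNAI2 (0.78) were not called. CDH6 fell from 80.8 and 78.4 to 8.55 and 7.81 CPM, while CDH1, E-cadherin (0.56), and CDH2, N-cadherin (0.53), were not called. Of 38 tested keratin, claudin and junction genes 12 rose (31.6%, against 19.5% of all tested genes) and 3 fell (7.89%, against 15.3%). Fewer rose without vehicle library 2 or combination library 2, and more fell without combination library 2. JUP, plakoglobin, went from 1.65 and 1.26 to 41.6 and 43.4 CPM and CLDN1 from 62.5 and 59.3 to 328 and 327 CPM. Keratin genes of luminal cells, KRT8 (1.97) and KRT18 (2.14), were not called.

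Of 55 tested neuronal genes 30 rose (54.5%, against 19.5% of all tested genes) and 3 fell, with 24 listed genes too low to test. The falls numbered 1 without vehicle library 1 or combination library 1. NRXN2, a presynaptic adhesion gene, rose from 0.283 and 0.467 to 75.4 and 73.3 CPM, a log2 fold change of 7.61 ± 0.23 (edgeR's quasi-likelihood test, Benjamini-Hochberg adjusted p = 3.91e-08). L1CAM, an adhesion gene of axons, went from 0.142 and 0.0934 to 9.57 and 11.7 CPM, SYT5, a calcium sensor of vesicles, from 0.33 and 0.14 to 17.2 and 16.04 CPM and CHGB, a granule protein, from 0.944 and 0.514 to 29.9 and 33.5 CPM. REST, the repressor of neuronal genes, was not called (-0.12), nor was the tubulin gene TUBB3 (0.98). Of 57 tested channel genes 25 rose (43.9%, against 19.5% of all tested genes) and 11 fell (19.3%, against 15.3%). The rises included CACNA1G, a T-type calcium channel (0.802 and 0.981 to 25.02 and 31.2 CPM). KCNMA1 was among the falls (162 and 162 to 41.8 and 40.4 CPM).

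Markers of other tissues were measured as well. Of 25 blood cell markers 5 were tested, of which 3 were called higher and 1 lower. The sum over all 25 was 49.6 and 43.5 CPM under vehicle and 228 and 275 CPM under the combination. Most of it was CD68, a lysosomal protein also made outside blood, which rose from 47.3 and 39.8 to 222 and 267 CPM. PTPRC, which encodes CD45 of leukocytes, had 29 summed counts under vehicle and 0 under the combination. Its call as lower was lost without vehicle library 2, combination library 1 or combination library 2. Of 8 tested skeletal and cardiac muscle markers 5 rose, among them TNNI3, cardiac troponin I (0.0472 and 0.14 to 4.81 and 5.36 CPM), and CKB, a creatine kinase also of brain (60.9 and 60.3 to 298 and 293 CPM). Among endothelial markers 3 were tested and 0 were called (1 without combination library 1), and of 12 tested liver and gut markers 1 rose (2 without combination library 1), APOE (7.55 and 8.69 to 24.8 and 28.3 CPM). Of 20 tested germ cell genes, out of 122 listed, 11 rose and 2 fell, with 7 higher without combination library 2. PIWIL2, of the piRNA pathway, was among the rises (0.236 and 0.374 to 22.7 and 23.6 CPM). MYOD1, MYOG, CD3E, PECAM1 and CDH5, which define several of these tissues, were too low to test. Whether any of these genes mark a subset of the cells was not tested.

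Of 24 tested HOX genes, which set position along the body axis, 8 fell (33.3%, against 15.3% of all tested genes) and 5 rose (20.8%, near the 19.5% of all). HOXC8 fell from 22.8 and 18.4 to 1.18 and 2.6 CPM and HOXC6, its neighbor in the cluster, from 24.9 and 20.04 to 7.16 and 6.84 CPM, while HOXC10 and HOXC13 at the other end of the same cluster rose (4.67 and 4.25 to 14.5 and 16.6 CPM and 3.35 and 3.92 to 9.98 and 9.19 CPM). The falls numbered 4 without vehicle library 1, vehicle library 2 or combination library 1, and the rises 3 without vehicle library 1. Of 37 tested guidance genes of the semaphorin, plexin and netrin families 15 rose (40.5%) and 9 fell (24.3%). The rises included SEMA4D (0.755 and 0.56 to 12.6 and 11.4 CPM) and the netrin receptor gene UNC5B (0.519 and 0.794 to 8.9 and 12.3 CPM). SEMA5B was among the falls (6.84 and 7.01 to 0.563 and 0.357 CPM). SOX12 fell from 148 and 150.3 to 21.4 and 28.3 CPM, and FOXO1 and SOX9 rose (6.33 and 6.96 to 28.4 and 29.4 CPM and 29.9 and 26.6 to 73.4 and 86.1 CPM).

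Of 61 tested kinesin and dynein genes 16 rose and 11 fell. The falls were led by KIF26B (-2.13) and the mitotic kinesin genes KIF23 (178 and 167 to 40.9 and 40.6 CPM), KIF20A (279.7 and 251 to 68.7 and 65.8 CPM) and KIF15 (-1.70). The rises included axonemal dynein heavy chains of cilia, DNAH17 (0.142 and 0.0934 to 5.63 and 6.13 CPM), DNAH3 (0.283 and 0.327 to 6.96 and 6.59 CPM) and DNAH7 (0.378 and 0.607 to 5.99 and 6.74 CPM), and KIF21B, a kinesin of neurons (0.991 and 1.03 to 29.2 and 29.01 CPM). Of 25 tested genes of ciliary transport 7 rose (28.0%) and 1 fell (4.0%). BBS12 was among the rises (7.41 and 8.08 to 61.8 and 57.7 CPM). Among tubulins, TUBA1B fell from 887 and 923 to 306 and 314 CPM and TUBB4 rose from 38.8 and 33.6 to 332 and 422 CPM. Reads that also aligned to close paralogs were not counted.

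Of 199 tested solute carrier genes 58 rose (29.1%, against 19.5% of all tested genes) and 26 fell (13.1%, against 15.3%), with 132 too low to test. SLC17A7, a vesicular glutamate transporter, rose from 4.63 and 3.22 to 145 and 171 CPM and SLC2A4, the insulin-regulated glucose transporter, from 0.567 and 1.03 to 33.01 and 31.7 CPM. SLC14A1, a urea transporter, fell from 5.19 and 5.84 to 0.409 and 0.255 CPM and SLC25A24, a mitochondrial carrier, from 170.5 and 149.8 to 22.1 and 28.9 CPM. Of 20 tested clock genes 9 rose, among them BHLHE41 (1.75 and 1.49 to 12.9 and 17.3 CPM) and ARNTL, which encodes the clock factor BMAL1 (24.2 and 22.2 to 114 and 118 CPM), and 3 fell, which was 1 without vehicle library 1.

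H1F0, the linker histone long used as a readout of deacetylase inhibitors, was at 517 and 501 CPM under vehicle, 644 and 495 with EC359, 2040.0 and 2047 with vorinostat and 2709 and 2843 under the combination, a log2 fold change of 2.45 ± 0.12 (edgeR's quasi-likelihood test, Benjamini-Hochberg adjusted p = 3.4e-07) over vehicle. Of 44 tested histone genes 20 rose (45.5%, against 19.5% of all tested genes) and 3 fell, with 40 too low to test. Reads that aligned to several near-identical copies were not counted. HIST1H1C rose from 16.2 and 12.2 to 132 and 114 CPM and HIST1H2BD from 8.4 and 7.33 to 67.04 and 63.3 CPM, while CENPA, of centromeres, fell (-1.32) and H2AFX (-0.86) was not called.

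Of the 11 zinc-dependent deacetylase genes HDAC7 fell from 63.1 and 64.5 to 2.46 and 5.11 CPM, a log2 fold change of -4.07 ± 0.28 (edgeR's quasi-likelihood test, Benjamini-Hochberg adjusted p = 2.28e-06), and was at 3.6 and 3.06 CPM with vorinostat alone. The gene overlaps SLC48A1 on the other strand. HDAC5 rose from 13.6 and 16.2 to 70.4 and 67.8 CPM and HDAC3 from 68.2 and 74.1 to 150.0 and 153 CPM, and the other 8 were not called, with HDAC1 at 0.45, HDAC2 at 0.11, HDAC6 at -0.39 and HDAC8 at -0.33 on the log2 scale. Among the NAD-dependent sirtuins, which vorinostat does not inhibit, SIRT1 rose from 81.3 and 77.96 to 426 and 395 CPM and SIRT4, SIRT6 and SIRT7 rose as well (3.22, 1.17 and 1.51), while SIRT5 fell (-1.35).

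Of 114 tested chromatin writers, erasers and readers 30 fell (26.3%, against 15.3% of all tested genes) and 6 rose. NSD1, a methyltransferase of histone H3, fell from 111 and 105 to 10.7 and 12.3 CPM, CHD3, of the NuRD complex, from 363 and 334 to 49.5 and 51.4 CPM, ARID1B, of the SWI/SNF complex, from 95.8 and 94.1 to 18.1 and 16.1 CPM, and DNMT3A, a DNA methyltransferase, with a log2 fold change of -2.47. KDM1B, a demethylase, rose from 40.6 and 39.7 to 253 and 264 CPM and SMARCA2, the BRM ATPase, from 8.21 and 7.66 to 29.2 and 29.4 CPM. DNMT1 (-0.95) was not called.

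Of 42 tested interferon-stimulated genes 10 were higher (23.8%, against 19.5% of all tested genes) and 13 lower (31%, against 15.3%), with a median log2 fold change of -0.66. Beside XAF1, EPSTI1 fell from 17.4 and 16.6 to 1.43 and 0.715 CPM, PARP9 from 31.4 and 27.6 to 2.92 and 3.17 CPM and IFITM3, an antiviral membrane protein, from 172 and 167 to 35.8 and 48.0 CPM. OASL rose from 0.142 and 0.0934 to 20.6 and 17.01 CPM, IFI30 from 15.8 and 17.5 to 208 and 186 CPM and BST2, tetherin, from 0.283 and 0.467 to 7.68 and 5.92 CPM, below the 16.2 and 13.9 CPM of vorinostat alone. The count of rises was less stable than that of falls: it was 5 without vehicle library 1, 7 without vehicle library 2, 6 without combination library 1 and 6 without combination library 2, against 10 to 15 falls. IRF1 (-0.45), IRF3 (-0.61) and IRF9 (-0.46) were not called.

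In antigen presentation 7 of 23 tested genes rose (30.4%, against 19.5% of all tested genes) and 7 fell (30.4%, against 15.3%). Fewer rose without vehicle library 2. HLA-B rose from 3.12 and 2.76 to 35.98 and 30.03 CPM, HLA-E from 155 and 167 to 519 and 521 CPM and HLA-DMB from 0.142 and 0 to 7.11 and 7.97 CPM, while TAPBP (227 and 235 to 70.9 and 81.0 CPM), ERAP1 (67.7 and 61.99 to 18.2 and 15.7 CPM) and the immunoproteasome subunit gene PSMB8 (20.96 and 27.0 to 5.17 and 5.06 CPM) fell, and B2M (0.33) was not called. CD274, which encodes PD-L1, rose from 17.3 and 15.9 to 93.04 and 77.9 CPM, and the stress ligands of the natural killer receptor NKG2D rose in MICA (30.3 and 31.7 to 135 and 138 CPM), MICB (23.8 and 26.8 to 113 and 119.5 CPM) and ULBP2 (1.56 and 1.59 to 17.1 and 18.4 CPM).

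Receptors of growth factors moved in both directions. EGFR fell from 218 and 203 to 51.02 and 58.7 CPM, a log2 fold change of -1.94 ± 0.17 (edgeR's quasi-likelihood test, Benjamini-Hochberg adjusted p = 1.07e-05), and ERBB2, which encodes HER2, from 96.1 and 102 to 12.03 and 12.6 CPM, a log2 fold change of -3.01 ± 0.11 (edgeR's quasi-likelihood test, Benjamini-Hochberg adjusted p = 7.14e-08). ERRFI1, the cytosolic inhibitor of EGFR, rose from 262 and 250.3 to 3348 and 3219 CPM, and ERBB3 from 0.897 and 0.841 to 11.3 and 12.7 CPM. AXL, a receptor kinase of mesenchymal cells, fell from 552 and 602 to 163 and 163 CPM and the neuropilin gene NRP1 from 171 and 161 to 19.9 and 23.6 CPM, while NGFR, the low affinity neurotrophin receptor, rose from 2.5 and 2.2 to 139.7 and 143 CPM. Of 32 tested PI3K and AKT pathway genes 8 rose, among them IRS2 (15.01 and 16.96 to 115 and 111 CPM), and 4 fell, among them AKT1 and AKT2 (-1.28 and -1.24).

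MYC rose from 207 and 184 to 731 and 804 CPM, a log2 fold change of 1.97 ± 0.12 (edgeR's quasi-likelihood test, Benjamini-Hochberg adjusted p = 1.15e-06), with 420.0 and 338 CPM with EC359 and 338 and 322 with vorinostat. MXD1, a competitor of MYC, rose from 4.44 and 3.88 to 64.02 and 63.9 CPM. In the Notch list 15 of 28 tested genes rose (53.6%, against 19.5% of all tested genes) and 2 fell (7.14%, against 15.3%). The Notch list had fewer falls with any 1 of the 4 libraries left out. Of its ligands JAG1 rose from 1.84 and 1.82 to 16.5 and 16.3 CPM and JAG2 from 3.82 and 4.16 to 19.6 and 21.6 CPM, and of its targets HES7 (3.12 and 2.76 to 61.8 and 67.6 CPM), NRARP (1.51 and 1.35 to 14.8 and 18.9 CPM) and HEY1 (2.36 and 2.85 to 20.1 and 18.2 CPM) rose, while the factor RBPJ (-0.22) was not called. In Hedgehog signaling 5 of 11 fell (45.5%), among them GAS1 and the transducer SMO (40.3 and 48.2 to 4.3 and 4.7 CPM).

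In WNT signaling 14 of 41 tested genes rose (34.1%, against 19.5% of all tested genes) and 8 fell (19.5%, against 15.3%). WNT5B fell from 264 and 275 to 23.1 and 22.7 CPM, FZD2 from 126 and 145 to 26.0 and 27.8 CPM and CTNNB1, beta-catenin, from 393 and 447 to 188 and 166 CPM, and FZD4 (5.81 and 6.31 to 74.6 and 64.9 CPM) and FZD8 (8.69 and 9.02 to 52.1 and 57.2 CPM) rose. Of the TGF-beta list 7 of 25 rose and 3 fell. INHBA, the activin A subunit, rose from 151 and 144 to 2946 and 3142 CPM, a log2 fold change of 4.37 ± 0.16 (edgeR's quasi-likelihood test, Benjamini-Hochberg adjusted p = 7.14e-08), and CTGF from 328 and 307 to 1749.7 and 1801 CPM. YAP1 fell from 228 and 255 to 63.5 and 44.2 CPM and TEAD2, its partner, from 82.4 and 73.6 to 13.4 and 17.4 CPM, while CYR61, a target of the pair, rose from 673 and 629 to 2609 and 2676 CPM.

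Targets of the glucocorticoid receptor rose in 8 of 10 tested genes (80.0%, against 19.5% of all tested genes). This list shares PER1, ERRFI1 and DUSP1 with lists above. SGK1, a kinase, went from 168 and 161 to 1589 and 1540.3 CPM and PER1, also a clock gene, from 12.7 and 9.44 to 58.1 and 60.1 CPM. FKBP5, a widely used target, had 0 and 0 counts under vehicle and 3 and 21 under the combination, and it missed the threshold (edgeR's quasi-likelihood test, Benjamini-Hochberg adjusted p = 0.0119). NR3C1, the gene of the receptor, was not called (-0.81).

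In glycolysis and the hypoxia response 15 of 43 tested genes rose (34.9%, against 19.5% of all tested genes) and 4 fell (9.3%, against 15.3%). SLC2A3, a glucose transporter, was at 95.1 and 96.3 CPM under vehicle and 1556 and 1549 CPM under the combination. NDRG1 rose from 0.802 and 0.654 to 15.9 and 15.6 CPM, and PFKL and LDHB fell (-1.83 and -1.52). PLIN2, which coats lipid droplets, rose from 79.8 and 90.3 to 737 and 713 CPM, NPC1, of cholesterol export from lysosomes, from 82.8 and 80.7 to 545 and 512 CPM and INSIG1 from 194 and 200.4 to 840.3 and 763 CPM, while FASN (-0.81) was not called and FADS2 (504 and 529 to 112 and 121 CPM) fell. SAT1, which marks polyamines for export, rose from 26.3 and 20.9 to 626 and 662 CPM and ODC1, which makes them, from 128 and 128 to 1028 and 987 CPM.

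In housekeeping complexes few genes were called higher. Of 82 tested cytosolic ribosomal protein genes 2 rose, RPL3L and RPS27L, and 1 fell, RPL22L1, with a median log2 fold change of -0.15. RPS27L, a paralog of RPS27 (18.4 and 23.1 against 50.9 and 37.2 CPM), lost its call when any 1 of the 4 libraries was left out. Of 76 mitochondrial ribosomal protein genes 17 fell and 2 rose (1 when any 1 of the 4 libraries was left out), of 81 respiratory chain subunits 17 fell and 1 rose, of 46 proteasome genes 8 fell and 0 rose, and of 98 splicing factors 17 fell and 4 rose. Their medians were -0.30, -0.48, -0.40 and -0.29. The shares called lower were 22.4%, 21.0%, 17.4% and 17.3% in the same order, against 15.3% of all tested genes. U2AF2, of 3' splice site recognition, fell from 467 and 483 to 81.7 and 80.4 CPM, and UBTF, the ribosomal DNA factor, from 268 and 240.1 to 30.3 and 36.3 CPM. The nuclear RNAs NEAT1 and MALAT1 rose from 269 and 203 to 1064 and 953 CPM and from 173 and 98.0 to 518 and 512 CPM.

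Across quintiles of genomic span the shares called higher lay between 17.7% and 20.5% and those called lower between 14.3% and 17.7%. On chromosome 19, 26.9% of tested genes were higher and 11.1% lower. Of 477 tested ZNF genes, many of which lie there, 102 rose (21.4%, near the 19.5% of all tested genes) and 45 fell (9.43%, against 15.3%). These shares are descriptions, since genes are not independent replicates.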

How the data were processed

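RNA from BT-549 cells was converted to libraries with a TruSeq total RNA kit and sequenced as single-end reads. The authors aligned the reads with TopHat2 2.0.8b to hg19 and counted them per gene with HTSeq, per the labels and their processing notes, and deposited raw gene counts for each library, with no normalization. Genes were annotated from NCBI RefSeq. The strand setting and the annotation's version were not given in the sources used here. Reads aligned to several places were not assigned to a gene, so close paralogs lose counts. Rows for reads on no gene, ambiguous reads and multiple alignments were left out of totals and tests, and reads on no gene were 11.03% to 14.2% of the reads on genes, on no gene or ambiguous.

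From the counts, genes passing edgeR's expression filter were scaled by TMM and fitted over all 8 libraries with 1 coefficient per group in edgeR 4.0.16 (R 4.3.3), and the quasi-likelihood test was applied to each contrast with Benjamini-Hochberg adjustment over all 13694 genes. Calls required an adjusted p under 0.01 and a fold over 2. The procedure was tested on simulated counts. CPM values are TMM-scaled. The members and lists were chosen with earlier results of these data known. Named genes were the 15 largest calls in each direction with a mean log2 CPM of at least 3 and no overlap, the 10 largest gains and losses of count share, the 10 highest of those with at most 3 counts per library in 1 group, genes the study measured again by RT-qPCR, and in each list the largest calls, drug targets and defining members, to which members of textbook role were added. Genes printed as not called were such members. Some genes that the rule names are not reported here. Loci on GRCh37 and overlaps on the other strand came from GENCODE, and promoters on GRCh38.p14 came from RefSeq.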

Additional observations from a re-analysis of the deposited data

Results flagged for a closer look

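Reads that fell on no annotated gene took a larger share in the combination libraries than in the control libraries. The share was 13.6% and 14.2% under the combination and 12.08% and 11.03% under vehicle, out of the reads on genes, on no gene or ambiguous. With EC359 alone it was 12.06% and 11.79%, and with vorinostat alone 12.32% and 12.62%. These reads entered no comparison, and their part in the results was not tested.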

How the results depend on the processing

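The count of 4763 genes called between the combination and vehicle moved by over 1.5 times only when the fold threshold was dropped, which by construction admits smaller changes: 7718 genes then passed, 4068 higher and 3650 lower. Leaving out 1 library in turn gave 4119 to 4330 calls, 2216 to 2339 higher and 1903 to 2044 lower, and 83.8% to 85.8% of the original calls were kept. In these fits the lone library of a group is assumed to vary like the other groups. DESeq2 1.42.0 called 4756 genes, and total counts in place of TMM shifted the median of all genes by -0.08 and gave 2457 higher and 2316 lower. Under DESeq2, RLE factors, total counts, both other filters on low counts, a fit to the 4 libraries alone and the block, 95.6% to 99.4% of the calls were kept, and 0 of the called genes changed sign under any alternative run. A block for the replicate number (replicate block) gave 4658 calls. The deviations of same-numbered vehicle and combination libraries had a correlation of -0.10, so the numbers are not shown to pair the libraries. With the 2 numbers of the combination group exchanged, an alternative chosen after seeing the data, 4785 genes were called. With 2 libraries a group, differences near the 2-fold threshold and genes with few counts are the least certain.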
